A study of Mus musculus with 9 samples.

Results

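The 8 genes described here mark B lymphocytes and their antigen receptor. They were Cd79a, Cd79b, Ms4a1, Pax5, Cr2, Blk, Cd22 and Fcer2a, taken from 19938 genes measured on arrays of mouse mammary epithelial cell preparations. Each was found by its gene symbol, and each had exactly 1 row that carried that symbol and no other. All groups came from wild-type C3H females aged 8 to 9 weeks, whose mammary glands were dissected and freed of fat by collagenase, and the labels call the material epithelial cells. Mock sorted cells went through trypsin and then a mock run of the cell sorter (FACS), trypsinized cells through trypsin alone, and untrypsinized cells were taken after collagenase before any trypsin. Each of the 3 groups had 3 arrays of total RNA, labelled biological replicates 1, 2 and 3, 9 arrays in all. The labels do not say which animals or pools gave which array, so every p-value below measures only the spread between these samples, which may in part be technical.

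A B cell recognises antigen through a membrane immunoglobulin that signals by way of the paired chains Cd79a and Cd79b, with Src family kinases such as Blk acting first. Coreceptors tune that signal: Cr2, the complement receptor also known as CD21, strengthens it, and Cd22, a lectin with inhibitory motifs in its tail, weakens it. Ms4a1 (CD20) and Fcer2a (CD23, the low-affinity IgE receptor) are surface proteins of mature B cells, and Pax5 is the transcription factor that commits precursors to the B lineage and keeps them there. Mammary gland preparations can hold B cells because lymph nodes lie within the mammary fat pads and lymphocytes also sit in the stroma and ducts. Levels below are log2(intensity + 1), a fold change on this scale understates the change of a dim gene, and a probe set's level cannot be set against that of another gene.

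RefSeq promoter sequences of the GRCm38.p6 assembly, running from 250 bases before to 50 bases after the start of transcription, were at hand for 5 of the 8 genes (Cd79a, Pax5, Cr2, Cd22 and Fcer2a), with 7 promoters between them. Cd79b, Ms4a1 and Blk had no entry. Both sequences below are given on the gene's own strand. That of the receptor chain Cd79a lies at chr7:24897247-24897546 on the plus strand. That of the inhibitory coreceptor Cd22 lies at chr7:30878979-30879278 on the minus strand. The Cd79a sequence held no exact match to the letters searched, and the Cd22 sequence matched those of 1 motif. Capitals mark the 2 overlapping matches, 1 on each strand, to the EBF1 motif.
Cd79a: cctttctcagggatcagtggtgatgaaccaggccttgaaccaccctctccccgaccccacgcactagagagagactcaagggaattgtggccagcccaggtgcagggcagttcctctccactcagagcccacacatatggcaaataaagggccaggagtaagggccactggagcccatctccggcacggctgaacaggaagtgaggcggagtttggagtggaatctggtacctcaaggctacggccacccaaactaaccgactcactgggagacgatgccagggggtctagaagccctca
Cd22: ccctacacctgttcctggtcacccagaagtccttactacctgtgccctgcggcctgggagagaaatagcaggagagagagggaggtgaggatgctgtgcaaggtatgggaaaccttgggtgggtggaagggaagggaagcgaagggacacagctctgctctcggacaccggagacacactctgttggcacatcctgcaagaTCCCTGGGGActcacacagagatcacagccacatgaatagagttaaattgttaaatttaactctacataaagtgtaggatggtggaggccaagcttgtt
Both strands were searched for 4 motifs. The EBF1 letters CCCNNGGGA occurred in 1 of the 7 promoters, that of Cd22, at -49 on the minus and -48 on the plus strand relative to the start site, and in 6.56% of 32851 mouse promoters of the same length. The octamer ATTTGCAT, bound by Oct factors, occurred in 0 of 7 and in 1.74% of all promoters. The ETS letters GAGGAAGT, bound by PU.1 and its relatives, occurred in 0 of 7 and in 3.2% of all promoters. The E box CAGCTG occurred in 1 of 7, an Fcer2a promoter, and in 16.3% of all promoters. A match describes the letters of these windows only. Sites that differ from these letters were not counted, so the lack of a match does not show that a factor has no site there.

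Before the comparisons, replicate 1 has to be described, because the replicate-1 arrays stood apart for these genes. In the mock sorted and trypsinized groups all 8 genes were highest on replicate 1, an order that 32.4% of all genes had in the mock sorted group and 35.3% in the trypsinized group. The excess of replicate 1 over the mean of replicates 2 and 3 had a median of 1.16 log2 units over the 8 genes in mock sorted arrays, 1.19 in trypsinized arrays and 0.52 in untrypsinized arrays. The 99th percentile of the same excess over all genes was 0.76, 0.74 and 0.37 in those groups, and the excess of 6 of the 8 genes in mock sorted arrays, 7 in trypsinized arrays and 5 in untrypsinized arrays (Cd79a, Ms4a1, Cr2, Cd22 and Fcer2a) lay beyond it. In untrypsinized arrays 6 of the 8 genes were highest on replicate 1, beside 18.8% of all genes, and Pax5 and Blk were not. Over whole arrays the replicates were close, with within-group correlations of log2 values of 0.993 to 0.997 and array medians of 345 to 408 intensity units.

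**Figure D1:**
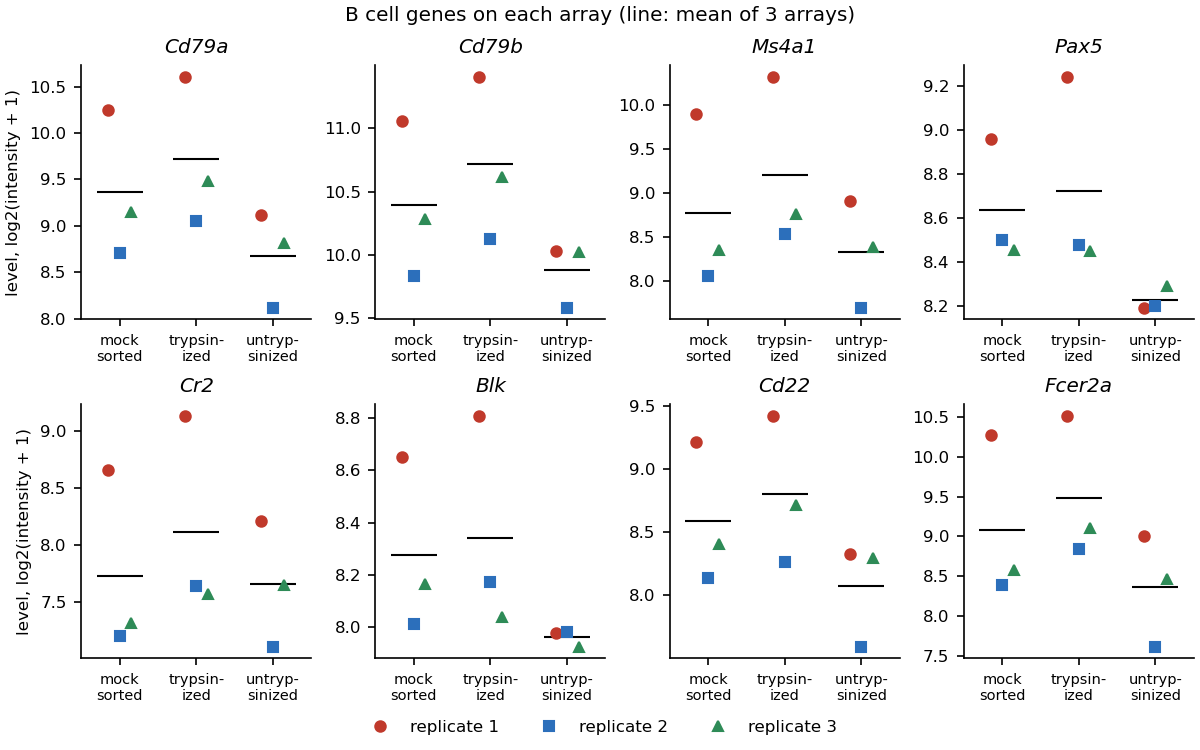
Level of each of the 8 genes, log2(intensity + 1), on every array of the mock sorted, trypsinized and untrypsinized groups, with 1 panel and 1 vertical scale per gene, symbols for the replicate and a line at the mean of 3 arrays. Replicate 1 is the highest point in all 8 mock sorted and all 8 trypsinized columns, and in 6 of the 8 untrypsinized columns.

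The receptor's signalling chains differed between replicates as much as between groups. Cd79a read 10.25, 8.71 and 9.15 on mock sorted replicates 1, 2 and 3, then 10.61, 9.06 and 9.48 on trypsinized replicates and 9.11, 8.12 and 8.81 on untrypsinized replicates. Its group means were 9.37 ± 0.80, 9.72 ± 0.80 and 8.68 ± 0.51 in the same order (SD, n = 3 each), and the ranges of the 3 groups overlapped. Cd79b, the partner chain, read 11.06, 9.84 and 10.29 in mock sorted cells, 11.41, 10.12 and 10.62 in trypsinized cells and 10.03, 9.58 and 10.03 in untrypsinized cells. All 3 trypsinized values of Cd79b lay above all 3 untrypsinized values, while the mock sorted values overlapped both groups. In every group replicate 2 was the lowest array for both chains.

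Blk, the Src family kinase, had a narrow range of levels. It read 8.65, 8.01 and 8.17 in mock sorted cells, 8.81, 8.17 and 8.04 in trypsinized cells and 7.98, 7.98 and 7.92 in untrypsinized cells. The untrypsinized arrays, at a mean of 7.96 ± 0.03 (SD, n = 3), lay below every array of the other groups. Pax5, the lineage factor, had the same shape. It read 8.96, 8.50 and 8.46 in mock sorted cells, 9.24, 8.48 and 8.45 in trypsinized cells and 8.19, 8.20 and 8.29 in untrypsinized cells. For both genes replicate 1 was the outlying array of the mock sorted and trypsinized groups and lay within the narrow untrypsinized range.

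The coreceptors had wider ranges. Cr2 read 8.66, 7.20 and 7.32 in mock sorted cells, 9.14, 7.65 and 7.58 in trypsinized cells and 8.21, 7.11 and 7.65 in untrypsinized cells. The untrypsinized replicate 1 lay above replicates 2 and 3 of both other groups, and the group means were 7.73 ± 0.81, 8.12 ± 0.88 and 7.66 ± 0.55 in the same order (SD, n = 3 each). Cd22 read 9.22, 8.14 and 8.41 in mock sorted cells, 9.42, 8.27 and 8.72 in trypsinized cells and 8.33, 7.59 and 8.29 in untrypsinized cells. Its untrypsinized replicates 1 and 3 were nearly level, with replicate 2 well below them.

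The surface proteins of mature B cells had the widest spread within groups. Ms4a1 read 9.90, 8.05 and 8.35 in mock sorted cells, 10.32, 8.53 and 8.75 in trypsinized cells and 8.90, 7.69 and 8.38 in untrypsinized cells. Fcer2a read 10.28, 8.39 and 8.58 in mock sorted cells, 10.52, 8.84 and 9.11 in trypsinized cells and 9.01, 7.61 and 8.47 in untrypsinized cells. For Ms4a1 the excess of replicate 1 was 1.70 log2 units in mock sorted and 1.68 in trypsinized cells, and for Fcer2a it was 1.79 and 1.55, each at about the 99.9th percentile of all genes. The groups overlapped for both genes, since untrypsinized replicate 1 exceeded mock sorted replicates 2 and 3.

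The 1027 olfactory receptor genes on the array, most of which are silent outside sensory tissue, served as a guide to the dim end of the scale. Their 95th percentile was 7.92 to 8.33 on the 9 arrays. Cd79a, Cd79b and Pax5 lay above it on 9 of 9 arrays, Fcer2a on 8, and Ms4a1 and Cd22 on 7. Cr2 and Blk lay above it on 3 arrays only, the replicate-1 array of each group. All 8 genes passed it on each replicate-1 array, and the fewest passed on untrypsinized replicate 2, where 3 of 8 did. All 8 lay above the olfactory median on every array.

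The comparison of trypsinized with untrypsinized cells, which the study made at a fold of at least 1.5 and a p of 0.05, asks what differs after trypsin. Each of the 8 means was higher in trypsinized cells, by 0.38 to 1.13 log2 units, and none passed the test, which left the replicate number out. Of the 8 genes, 7 were higher in the trypsinized array of every number, beside 33.4% of all genes. Over all genes, same-numbered arrays of these groups did not deviate together. A fit with that number as a block over 9 arrays called 5 of 8, for which no share of all genes is given. In limma's moderated test over all genes with Benjamini-Hochberg adjustment, 0 of 8 were called, beside 1.46% of all genes, and 1 of 8 (Pax5) had an unadjusted p below 0.05, beside 22.6% of all genes higher at that level. The largest difference was that of Fcer2a, 1.13 (SE 0.62, limma adjusted p = 0.212), with a 95% confidence interval of -0.30 to 2.55. Cd79a differed by 1.04 (SE 0.50, limma adjusted p = 0.160; interval -0.11 to 2.18) and Cd79b by 0.83 (SE 0.38, limma adjusted p = 0.137). Pax5 differed by 0.49 with the smallest adjusted p of the 8 (SE 0.22, limma adjusted p = 0.125; interval 0.00 to 0.99), and Cr2 by 0.46 with the largest (SE 0.53, limma adjusted p = 0.549). The groups did not overlap for 3 genes, Cd79b, Pax5 and Blk, beside 25% of all genes. The median difference of the 8 genes was 0.78, against 0.04 over all genes.

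The size of those differences depended on single arrays. Without untrypsinized replicate 1 the median difference was 0.88. Without trypsinized replicate 1 the median difference was 0.37 and Cr2 turned to -0.046, and with all 3 replicate-1 arrays left out it was 0.56, with all 8 means still higher in trypsinized cells and 0 of 8 called. In whole tissue or mixed cells, more B cells and more of these transcripts per B cell cannot be told apart.

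**Figure D2:**
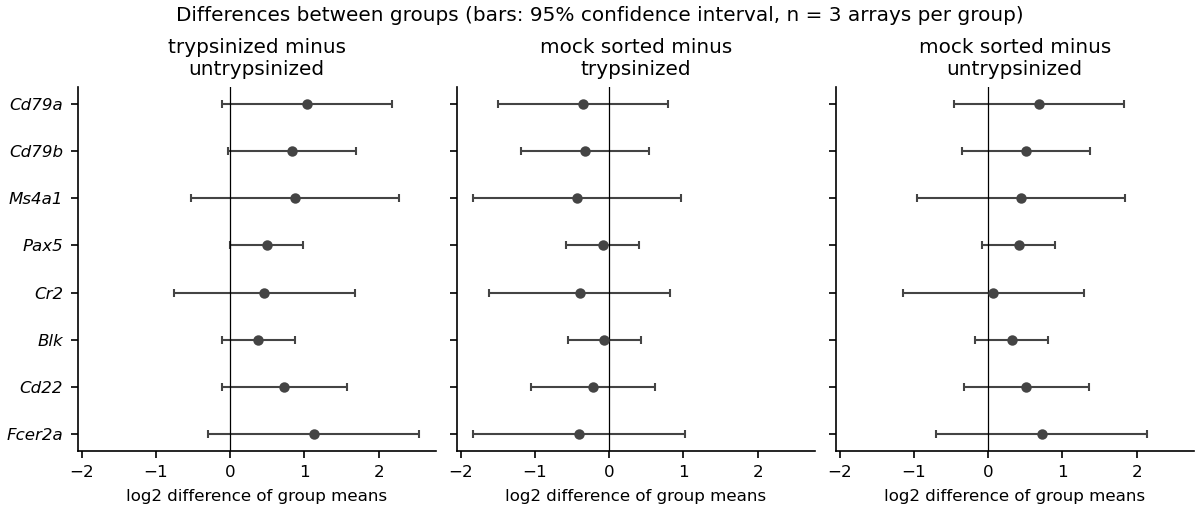
Log2 differences of group means for the 8 genes in the comparisons of trypsinized with untrypsinized, mock sorted with trypsinized and mock sorted with untrypsinized cells, with 95% confidence intervals from limma (n = 3 arrays per group). Every interval holds 0 except that of Pax5 in trypsinized against untrypsinized cells, whose lower end is at 0.00.

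Setting mock sorted against trypsinized cells asks what a pass through the sorter adds. All 8 means were lower in mock sorted cells, by amounts that were small beside the spread between replicates, and 0 of 8 were called by limma, beside 1.19% of all genes, with 0 of 8 at an unadjusted p below 0.05, beside 11.4% of all genes lower at that level. The differences ran from -0.06 for Blk to -0.43 for Ms4a1 (limma adjusted p = 0.733 to 0.922), with a median of -0.33 against 0.00 over all genes. The groups overlapped for all 8 genes, while 14.3% of all genes were lower without overlap, and the interval for Cd79a ran from -1.49 to 0.80. Without trypsinized replicate 1 the sign turned for all 8 genes and the median was 0.11. It was -0.72 when mock sorted replicate 1 was left out instead.

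Here the replicate numbers tied the arrays together: the deviations of mock sorted and trypsinized arrays from their group means went together within each number over all genes, although the labels do not state a shared source. Setting each mock sorted array against the trypsinized array of its own number gave differences far tighter than the group means. Cd79a differed by -0.35, -0.35 and -0.34 in numbers 1, 2 and 3. Cd79b differed by -0.35, -0.29 and -0.33, and Ms4a1 by -0.42, -0.48 and -0.41. These chains and the surface protein were thus lower in the mock sorted array of each number by nearly the same amount, although their levels differed by more than 1 log2 unit between numbers.

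Among the coreceptors, Cr2 differed by -0.48, -0.45 and -0.26 and Cd22 by -0.21, -0.13 and -0.31. Fcer2a differed by -0.24, -0.44 and -0.53. Pax5 differed by -0.28, 0.02 and 0.01 and Blk by -0.16, -0.16 and 0.13, so these 2 did not keep one sign. In all, 6 of 8 genes were lower in mock sorted arrays of every number, beside 24.5% of all genes, and the median over the 8 genes was -0.31, -0.32 and -0.32. Of the variation of the 8 genes over these 6 arrays, the replicate number held a median of 93.3% of the sum of squares, the group 6.35% and the remainder 0.50%, against medians of 34.9%, 23.5% and 23.1% over all genes.

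With the replicate number as a block, limma on these 6 arrays still called 0 of 8 genes at a fold of at least 1.5, beside 1.23% of all genes called lower. With no minimum fold, 4 of 8 fell at an adjusted p of 0.05 or below, beside 3.53% of all genes: Cd79a (-0.35, SE 0.03, limma adjusted p = 0.0222), Cd79b (-0.32, SE 0.04, limma adjusted p = 0.0289), Ms4a1 (-0.43, SE 0.04, limma adjusted p = 0.0159) and Cr2 (-0.39, SE 0.06, limma adjusted p = 0.0496). Fcer2a (limma adjusted p = 0.0659), Cd22 (0.118), Pax5 (0.580) and Blk (0.668) did not pass. This fit was added after the data were seen, and each of the 4 falls is under 1.5-fold. Cr2 lay below the olfactory 95th percentile on replicates 2 and 3 of both groups, so its difference there was measured at the dim end of the scale.

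**Figure D3:**
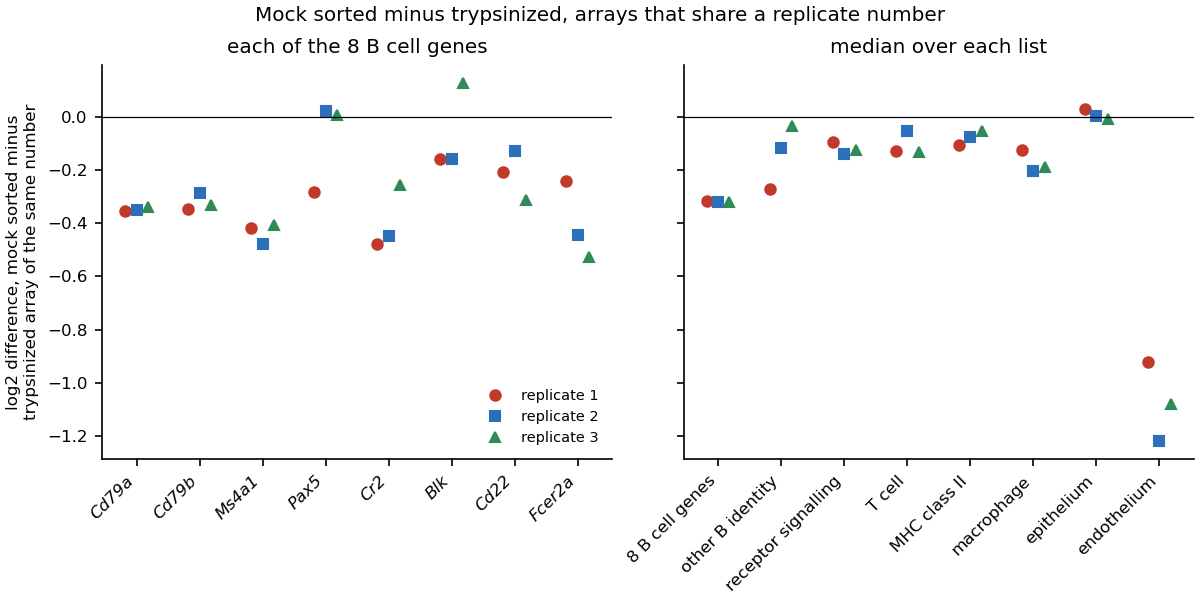
Log2 difference between the mock sorted and the trypsinized array of the same replicate number, for each of the 8 genes (left) and as the median over each gene list (right), with 1 symbol per number. Cd79a, Cd79b, Ms4a1, Cr2, Cd22 and Fcer2a lie below 0 in all 3 numbers, the epithelial list lies at 0 and the endothelial list lies near -1.

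The comparison of mock sorted with untrypsinized cells spans both steps and is not in the study's design text. Each of the 8 means was higher in mock sorted cells, by 0.07 to 0.72 log2 units, and 0 of 8 were called by limma, beside 4.47% of all genes, with 0 of 8 at an unadjusted p below 0.05, beside 27.9% of all genes higher at that level. Fcer2a differed by 0.72 (SE 0.62, limma adjusted p = 0.380), Cd79a by 0.69 (SE 0.50, limma adjusted p = 0.299) and Pax5 by 0.41 (SE 0.22, limma adjusted p = 0.161). Cr2 differed by 0.07 (limma adjusted p = 0.927; interval -1.15 to 1.29), a sign that turned under other scalings of the arrays and without mock sorted replicate 1. The groups did not overlap for 2 genes, Pax5 and Blk, beside 28.7% of all genes. The median was 0.48 against 0.05 over all genes, and 0.15 without mock sorted replicate 1. Both this comparison and that of trypsinized with untrypsinized cells use the same untrypsinized arrays, so their values are not independent.

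The rest of the B cell programme was read from lists of other genes. Of 20 other B cell identity genes 19 were measured, and replicate 1 was the highest array for 15 of them in mock sorted, 17 in trypsinized and 11 in untrypsinized cells. In trypsinized against untrypsinized cells 18 of the 19 means were higher and 0 were called (median 0.41). The 1 call of the list was Ebf1, a B lineage transcription factor that stromal and fat precursor cells also express. Like the 8 genes it was lower in mock sorted than in trypsinized cells, and unlike them it was also lower in both of these groups than in untrypsinized cells. Ebf1 read 10.36, 9.90 and 10.19 in mock sorted cells, 11.11, 10.84 and 10.85 in trypsinized cells and 11.34, 11.37 and 11.53 in untrypsinized cells, with no overlap between the groups. It fell by 0.78 in mock sorted against trypsinized cells (SE 0.12, limma adjusted p = 0.00873) and fell by 1.26 in mock sorted against untrypsinized cells (limma adjusted p = 0.000147). Cd40, the receptor for T cell help, was higher in mock sorted than in untrypsinized cells at an adjusted p below the threshold but under 1.5-fold (0.35, limma adjusted p = 0.0278), as was Tnfrsf13b, a receptor for B cell survival factors (0.23, limma adjusted p = 0.0347), beside 21% of all genes higher by that rule.

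Of 19 genes of the receptor's signalling cascade 16 were measured, and 0 were called in any of the 3 comparisons at a fold of at least 1.5. With no minimum fold, 3 of the 16 rose in trypsinized against untrypsinized cells, a count near the 13.9% of all genes, and 0 of the 8 B cell genes did. Plcg2, the phospholipase below the receptor, rose by 0.27 (SE 0.04, limma adjusted p = 0.00327), Dapp1, an adaptor of the phosphoinositide kinase branch, by 0.18 (limma adjusted p = 0.0172) and Pik3cd, the kinase subunit of that branch in leukocytes, by 0.51 (limma adjusted p = 0.0247). The list's median was 0.29, against 0.78 for the 8 genes. Plcg2 read 11.14, 11.07 and 11.07 in mock sorted and 11.11, 11.02 and 11.12 in trypsinized cells. Dapp1 read 11.09, 11.05 and 11.11, then 11.14, 11.05 and 11.07. Neither had the wide replicate-1 excess of the 8 genes, but most of the list was highest on replicate 1. This held for 15 of 16 genes in mock sorted, 15 in trypsinized and 9 in untrypsinized cells. The shares of all genes were 32.4%, 35.3% and 18.8%. The list's median excess was 0.43, 0.49 and 0.09 in the same order, and its highest was 1.37, 1.34 and 0.57. Many members of the list also act in other blood cells.

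Immunoglobulin genes shared the pattern of replicate 1. Of 12 listed, 3 had a row of their own, and in each group all 3 were highest on replicate 1. Ighm, the heavy chain of IgM, read 10.54, 9.19 and 9.34 in mock sorted cells, 10.77, 9.47 and 9.29 in trypsinized cells and 8.93, 8.36 and 8.50 in untrypsinized cells. Igha, the heavy chain of the IgA that mammary plasma cells secrete, read 10.90, 9.32 and 9.00 in mock sorted cells, 10.84, 9.45 and 8.60 in trypsinized cells and 8.95, 7.10 and 7.49 in untrypsinized cells. Only Ighg3 was called, higher in mock sorted than in untrypsinized cells by 0.71 (limma adjusted p = 0.0367), a call that was lost under quantile or common-median scaling. Ighg3 read 8.19, 7.47 and 7.65 in mock sorted and 7.20, 6.87 and 7.12 in untrypsinized cells. Each of these lay below the olfactory 95th percentile of its array, so the call was made at the dim end of the scale. The list had 0 calls in that comparison when mock sorted replicate 1 or 3 or untrypsinized replicate 2 or 3 was left out, and 2 when trypsinized replicate 1 was. Immunoglobulin heavy chain genes share sequence, so signal may be shared among them.

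Of the plasma cell list, Jchain, the chain that joins secreted IgA and IgM, differed most. Jchain read 10.28, 7.99 and 8.58 in mock sorted cells, 10.27, 8.42 and 8.52 in trypsinized cells and 8.04, 6.58 and 6.85 in untrypsinized cells, a difference of 1.91 in trypsinized against untrypsinized cells that did not pass (SE 0.71, limma adjusted p = 0.0803). The plasma cell list had a median replicate-1 excess of 0.29 in mock sorted and 0.39 in trypsinized cells. Lists of 6 germinal centre and 6 precursor genes did not have it: their medians were -0.04 and -0.11 in mock sorted cells, and -0.03 and 0.02 in trypsinized cells. The highest single excess among the germinal centre genes was that of Rgs13, 0.98 and 1.14 in these groups. The median precursor level, 7.41 to 7.80, lay below the olfactory 95th percentile on every array. The median germinal centre level, 8.45 to 8.62, lay above that percentile on every array but did not carry the excess of Rgs13. Neither list's median shows that such cells were absent. No gene of either list was called in any comparison at a fold of at least 1.5.

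Markers of other cells moved with the 8 genes on some arrays and not on others. The T cell list (14 of 16 genes measured) was highest on replicate 1 for 14 of 14 genes in mock sorted and in trypsinized cells, with median excesses of 1.09 in both, close to those of the 8 B cell genes. In untrypsinized cells only 1 of 14 T cell genes was highest on replicate 1. The mean level of the T cell list, relative to its mean over all 9 arrays, was -0.81, -0.53 and -0.69 on untrypsinized replicates 1, 2 and 3, while that of the 8 B cell genes was -0.08, -0.81 and -0.32. The array that was highest for the B cell genes was thus the lowest for the T cell genes within that group, and the reverse held for replicate 2.

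The T cell genes also differed from the B cell genes between groups. All 14 had non-overlapping groups and were higher in trypsinized and in mock sorted than in untrypsinized cells, beside 25% and 28.7% of all genes, and 2 and 3 of them were called. Lat, an adaptor of the T cell receptor, rose by 1.51 in trypsinized cells (SE 0.43, limma adjusted p = 0.0365) and Cd8b1, a chain of the CD8 coreceptor, by 1.75 (SE 0.50, limma adjusted p = 0.0365). The calls in trypsinized against untrypsinized cells numbered 0 without trypsinized replicate 1 or any one untrypsinized array, 1 without replicate 2 of the trypsinized or mock sorted group and 8 when the mock sorted replicate 1 was dropped. Those in mock sorted against untrypsinized cells numbered 0 when any one untrypsinized array or mock sorted replicate 1 or 2 was dropped, 1 and 7 when trypsinized replicate 2 or 1 was, and 5 when mock sorted replicate 3 was. Between mock sorted and trypsinized arrays of the same number the T cell medians were -0.13, -0.05 and -0.13, and 0 of 14 passed in the blocked fit without a minimum fold. In the same fit 6 of 19 other B cell identity genes, 2 of 16 signalling genes, 1 of 13 macrophage genes and 7 of 7 endothelial genes fell. So did 2 of 8 lymph node stroma, 2 of 7 lymphocyte homing, 1 of 8 plasma cell and 1 of 7 NK cell genes. The share of all genes was 3.53%. The immunoglobulin, germinal centre, precursor, MHC class II, epithelial and erythroid lists had 0. Arrays of the same number had 12 of 16 signalling genes and 10 of 13 macrophage genes lower in the mock sorted array every time, with macrophage medians of -0.13, -0.20 and -0.19. The difference between the T cell list and the 8 B cell genes was not tested.

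The summed intensity of the 8 B cell genes ran from 2973 to 7443 in mock sorted cells, 3619 to 9316 in trypsinized cells and 2319 to 3749 in untrypsinized cells. That of the 14 T cell genes ran from 6406 to 15511, 6883 to 16893 and 3901 to 4867 in the same order. MHC class II genes, which B cells share with macrophages and dendritic cells, had a replicate-1 excess of 0.44, 0.49 and 0.16 as list medians, and 0 of 8 were called in each comparison. Macrophage genes, 13 of 13 measured, had medians of 0.18, 0.16 and 0.04, and 2 of them, Adgre1 and Mrc1, were called lower in mock sorted than in untrypsinized cells. Epithelial genes, 10 of 11 measured, had medians of -0.02, -0.02 and 0.02 and summed to 76078 to 80764 over the 9 arrays, with 0 called. Endothelial genes were called lower for 3 of 7 in trypsinized against untrypsinized cells and for 7 of 7 in mock sorted against either other group. The part of lymphocyte content in the differences of the 8 genes was not tested.

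**Figure D4:**
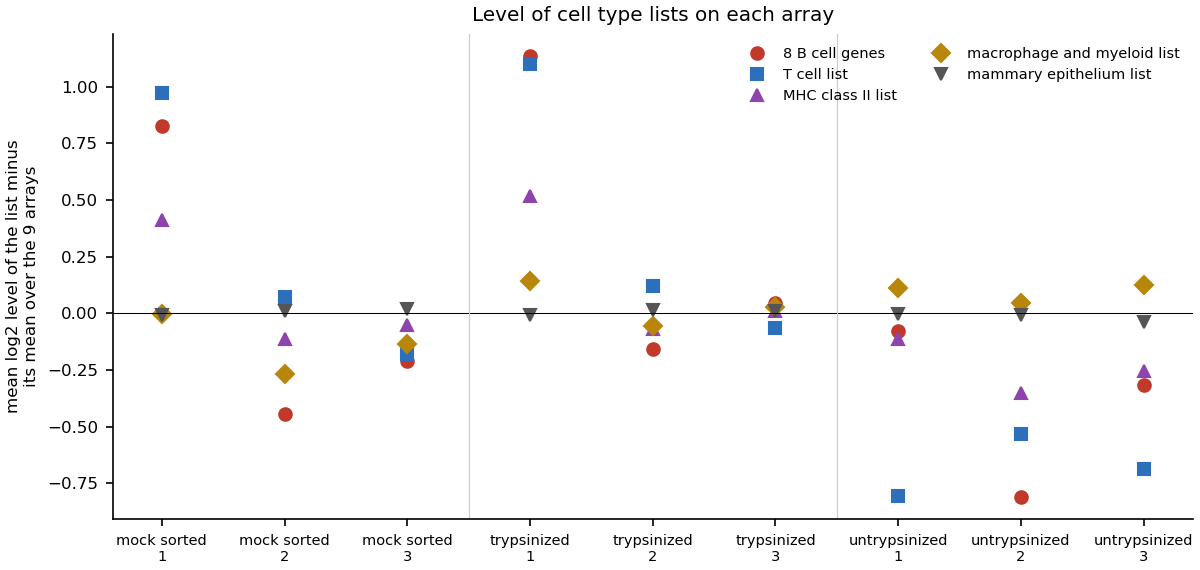
Mean log2 level of each list minus its mean over the 9 arrays, for the 8 B cell genes and the T cell, MHC class II, macrophage and epithelial lists, on the arrays of the mock sorted, trypsinized and untrypsinized groups. B and T cell points lie together near 0.8 to 1.1 on the mock sorted and trypsinized replicate 1, and apart on untrypsinized replicate 1, at -0.08 for the B cell and -0.81 for the T cell genes, while epithelial points stay at 0.

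To find the genes most like the 8, the mean centred profile of the 8 over the 9 arrays was set against the centred profile of every other gene, with the root mean square log2 difference as the measure of likeness. The 10 closest were Hvcn1 (0.09), Bank1 (0.10), Stap1 (0.10), Cd180 (0.11), Cd37 (0.12), Spib (0.15), Cyfip2 (0.15), Dnase1l3 (0.16), H2-Ob (0.16) and Fcmr (0.17), while a flat profile would lie at 0.58 and the median gene at 0.59. Bank1, Cd180, Cd37, Spib, H2-Ob and Fcmr were already on the B cell lists above. Hvcn1 is a voltage-gated proton channel of leukocytes, Bank1 a B cell scaffold protein, Spib an ETS transcription factor and Fcmr a receptor for the constant part of IgM. Hvcn1 read 10.07, 8.81 and 8.99 in mock sorted cells, 10.36, 9.14 and 9.44 in trypsinized cells and 9.10, 8.66 and 8.89 in untrypsinized cells, the same order of arrays within each group as Cd79a. The 8 genes themselves lay between 0.12 (Cd22) and 0.32 (Blk) from their own mean profile, which includes them. None of the 10 was called by limma in any of the 3 comparisons. They were chosen for the profile of the 8, so this adds nothing to the 0 calls of the 8. Under 4 other settings of scaling, pseudocount and rows 9 or 10 of the 10 stayed the same.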

How the data were processed

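Per the labels, total RNA was extracted with a kit, labelled with biotin and hybridised to Affymetrix whole-transcript arrays. The deposited table holds linear intensities in 35512 rows, already processed by the authors. How background, probe summary and scaling were handled is not given in the sources used here. Their processing notes name limma alone. Rows were named through a platform annotation that can be old: 21789 had 1 symbol, 1621 several and 12102 none listed, and 21698 symbols were updated by gene number with RefSeq GRCm38.p6. The row with the highest mean stood for each of 19938 genes, and 999 genes had a choice of rows.

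The log2 of the deposited intensity plus 1 was fitted with limma 3.58.1 in R 4.3.3, with 1 mean per group over 9 arrays and moderated variances. P-values were adjusted over all genes by Benjamini-Hochberg, and a call needed an adjusted p of at most 0.05 together with 1.5-fold. The number of arrays limits the precision. The fit was tested on simulated data.

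The 8 genes, the lists and the tests were chosen with earlier results of these data known. Genes named are the 8, the 10 with the most similar profile (predicted genes, clone names and small RNAs left out) and up to 4 per list with the smallest moderated F p, not all of which are named. Further lists covered NK cells, lymphocyte homing, lymph node stroma and erythroid cells.

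Deviations from group means, over all genes, gave correlations of 0.53, 0.29 and 0.29 for mock sorted and trypsinized arrays of numbers 1, 2 and 3. Arrays of unlike number gave -0.36 to -0.31 where replicate 1 was one of them. They gave 0.16 for mock sorted 2 with trypsinized 3 and 0.13 for mock sorted 3 with trypsinized 2. The numbers were taken to pair the mock sorted and trypsinized arrays. This comes from the values and not from the labels. For trypsinized and untrypsinized arrays (0.11, 0.04 and -0.04) and mock sorted and untrypsinized arrays (0.32, 0.18 and 0.06) they were not. Alternatives covered scaling, pseudocount, filters, rows, thresholds, the variance model, array weights, subsets of arrays and a replicate block.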

Additional observations from a re-analysis of the deposited data

How the results depend on the processing

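With the replicate number as a block, 5 of the 8 genes were called in trypsinized against untrypsinized cells over 9 arrays, instead of 0. These were Cd79a, Cd79b, Ms4a1, Cd22 and Fcer2a. Over the 6 arrays of those groups 2 were called, with or without the fold minimum (Cd79a and Fcer2a). Over all genes, however, same-numbered arrays of these groups did not deviate together, although 6 of the 8 genes were highest on replicate 1 in all 3 groups. In mock sorted against untrypsinized cells the block gave 2 calls over 9 arrays (Cd79a and Fcer2a) and 1 over 6 (Cd79a). Leaving out the 3 replicate-1 arrays with no minimum fold gave 1 there (Pax5). The shares of all genes called under these settings are not given, so the counts cannot be set against them. In mock sorted against trypsinized cells the block over 6 arrays with no minimum fold gave 4, beside 3.53% of all genes lower by that rule. All other settings tried for these counts gave 0. Median differences over the 8 genes, leaving out each array in turn, ran from 0.37 to 1.06 for trypsinized against untrypsinized, -0.72 to 0.11 for mock sorted against trypsinized and 0.15 to 0.77 for mock sorted against untrypsinized cells. Signs turned in 23 single differences, none of which was called. Leaving out each array in turn, the difference of mock sorted from trypsinized cells ran from -0.79 to 0.098 for Cd79a, -0.65 to 0.024 for Cd79b, -1.001 to 0.12 for Ms4a1, -0.24 to 0.17 for Pax5, -0.86 to 0.12 for Cr2, -0.25 to 0.17 for Blk, -0.53 to 0.094 for Cd22 and -1.001 to 0.11 for Fcer2a, the upper end without trypsinized replicate 1. The sign also turned without mock sorted replicate 2 (Blk 0.07, Cd22 0.0080), without mock sorted replicate 3 (Pax5 0.0059) and without the replicate-1 arrays (Pax5 0.014). For mock sorted against untrypsinized cells Cr2 ran from -0.40 to 0.35 and Ms4a1 from -0.13 to 0.80, the lower ends without mock sorted replicate 1. Cr2 there was -0.13 under quantile scaling, -0.080 under a common median, -0.20 without untrypsinized replicate 2 and -0.12 without the 3 replicate-1 arrays. For trypsinized against untrypsinized cells Cr2 ran from -0.046 to 0.74. The cause was not tested.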

Other observations

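Genes of lymphocyte traffic, 7 of 8 measured, were highest on replicate 1 for 6 of 7 in mock sorted, 7 of 7 in trypsinized and 3 of 7 in untrypsinized cells. Their median differences were 0.48 in trypsinized against untrypsinized, -0.17 in mock sorted against trypsinized and 0.42 in mock sorted against untrypsinized cells. Ltb, a lymphotoxin chain that lymphocytes make, rose by 0.77 in trypsinized against untrypsinized cells (SE 0.23, limma adjusted p = 0.0395) and was the 1 of 7 homing genes called there. That list had 0 calls without any one untrypsinized array, without trypsinized replicate 1 or 3 or mock sorted replicate 3, under quantile scaling, with every row tested and with a variance trend. S1pr1, a receptor for exit from lymph nodes that endothelium also carries, fell by 1.21 in mock sorted against untrypsinized cells (SE 0.26, limma adjusted p = 0.00725). Madcam1, an adhesion molecule on which lymphocytes enter gut tissue and some lymph nodes, averaged 7.86 ± 0.25 in mock sorted cells, 8.56 ± 0.09 in trypsinized cells and 8.81 ± 0.10 in untrypsinized cells (SD, n = 3 each). It fell by 0.69 in mock sorted against trypsinized cells (SE 0.12, limma adjusted p = 0.0135) and fell by 0.95 against untrypsinized cells, the only calls among 8 lymph node stroma genes. In mock sorted against trypsinized cells that list had 0 calls without trypsinized replicate 1 or 3 or mock sorted replicate 2 or 3.

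Glycam1, a mucin of lymph node venules that milk-secreting cells also make, read 13.44, 12.97 and 13.06 in mock sorted cells, 13.39, 12.93 and 13.06 in trypsinized cells and 12.71, 11.51 and 12.83 in untrypsinized cells. Its lowest array was untrypsinized replicate 2, which was also the lowest of the 9 for Cd79a, Cd79b, Ms4a1, Cr2, Cd22 and Fcer2a. NK cell genes, 7 of 7 measured, and the 2 of 6 erythroid genes that were measured had 0 calls in each comparison by limma, with 3, 0 and 1 NK cell genes and 0, 1 and 1 erythroid genes at an unadjusted p of at most 0.05 in trypsinized against untrypsinized, mock sorted against trypsinized and mock sorted against untrypsinized cells.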
